A study of Homo sapiens with 6 samples.

Results

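DNER and 9 genes of the Notch pathway were followed in MCF10A cells, an immortalised and non-tumorigenic human breast epithelial line, after knockdown of the tumour suppressor PDCD4. The 10 members were the non-canonical ligand gene DNER, the ligand genes JAG1, JAG2 and DLL1, the receptor genes NOTCH1, NOTCH2 and NOTCH3, the gene RBPJ for the DNA-binding protein of the pathway, and the target genes HES1 and HEY1, out of 34486 genes in all. They were chosen with their levels in these libraries known. Their values are therefore a description, and where a fold change, its interval or a call from the fit over all genes is given for a member, it is no independent test of that member. Total RNA was sequenced from 3 libraries of cells given siRNA against PDCD4 (siPDCD4) and 3 libraries of cells given a control siRNA (siCT). All cells carried the wild-type genotype, were kept in the same growth medium with EGF, insulin, hydrocortisone, cholera toxin and horse serum, received 10 nM siRNA, had their medium changed after 6 h and were collected after 48 h. The siRNA against PDCD4 was a pool, and 1 cell line was used. The labels do not state whether the libraries came from separate cultures, so a p-value measures only the spread between libraries.

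Notch receptors are cleaved after a ligand on a neighbouring cell binds them, and the released intracellular part enters the nucleus and joins RBPJ to switch on genes such as HES1 and HEY1. The Jagged and Delta-like proteins are the classical ligands, and in breast epithelium the pathway is known for its part in cell fate choice. DNER, a transmembrane protein with EGF repeats, is best known from neurons and was described as a non-canonical ligand in the mouse cerebellum.

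Library totals lay between 15547679 and 18619778 estimated counts in siPDCD4 and between 13410441 and 21828931 in siCT. The level of a gene is given in CPM, the counts scaled to a common library size with a correction for transcript length, and a difference as a log2 fold change of siPDCD4 over siCT with its SE. PDCD4, a regulator of translation, had 9.16, 7.44 and 8.63 CPM in siPDCD4 and 90.5, 89.1 and 61.1 CPM in siCT, a log2 fold change of -3.25 ± 0.17. The library siCT 3 stood apart from the others on the first principal component of the log2 levels, at 27.1 where the other 5 lay between -13.7 and 7.78, and 76.2% of its counts were protein-coding, where the others had 78.7% to 86.4%. All 12 mammary epithelial markers reached 1 TPM in every library, with summed levels of 2341 to 2782 TPM in siPDCD4 and 2435 to 2877 TPM in siCT. None of the 12 was called at an FDR of 5%, but KRT8 lay lower in every siPDCD4 library, with a log2 fold change of -0.32 ± 0.09 (edgeR adjusted p = 0.225), and TP63 higher in every one, at 0.36 ± 0.09 (edgeR adjusted p = 0.180), while EPCAM lay at 0.47 ± 0.16 with overlapping groups (edgeR adjusted p = 0.384). The other keratins of the list had overlapping groups, with KRT5 at -0.08 ± 0.13, KRT14 at -0.14 ± 0.29, KRT17 at 0.07 ± 0.08 and KRT18 at 0.05 ± 0.10. Among all genes tested, 13.9% had groups that did not overlap. No common direction is read from these markers, and their part in the results was not tested. TPM, Salmon's measure of transcript abundance, corrects for length and is the scale used to compare genes. None of 8 neuronal markers reached 1 TPM in every library and 5 were at 0 throughout, and their sum was 0.948 to 1.29 TPM in siPDCD4 and 1.17 to 1.43 TPM in siCT. The summed markers of fibroblasts reached at most 2.33 TPM, and those of endothelial cells at most 0.908 TPM. The summed leukocyte markers lay between 6.38 and 7.95 TPM in siPDCD4 and between 6.24 and 8.50 TPM in siCT. A bulk library cannot tell fewer cells of a type from less RNA per cell.

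The promoter of HES1 is shown because it carries 2 copies of TGGGAA, and HES1 is the main target gene among the members. These letters are only part of the site that RBPJ reads. The copies are therefore not taken as a pair of RBPJ sites, and binding was not tested. The search was for TGGGAA on both strands, in windows of 250 bases before and 50 bases after each start, taken from the RefSeq promoter table (GRCh38.p14). The windows of 30 bases below are printed in the direction of the gene, with TGGGAA or its reverse complement in capitals.
HES1 (chr3:194136059-194136088, + strand): tactgTGGGAAagaaagttTGGGAAgtttc
RBPJ (chr4:26319619-26319648, + strand): ggtttaggaaatTTCCCAcggccgtgttgt
RBPJ (chr4:26319662-26319691, + strand): agtggaaggcggTGGGAAggaggtgtagcg
In HES1 both copies lay on the strand of the gene, starting 84 and 70 bases before the start, with 14 bases between their first letters. In 1 of the 5 RBPJ promoters a copy on the opposite strand lay 115 bases before the start and another on the gene's strand 72 bases before it. The table held 11 promoters of 7 members, and those of JAG1, JAG2, NOTCH1, NOTCH2 and NOTCH3 held no copy. Among all 35116 promoters of the table, 24.0% held at least 1 copy and 3.80% at least 2, and a match is only a description of these letters.

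DNER (ENSG00000187957, chromosome 2, 229357629 to 229714555 on the minus strand of GRCh38) was lower in siPDCD4 by 0.94 on the log2 scale. It had 25.4, 29.8 and 30.1 CPM in siPDCD4 and 54.3, 50.5 and 58.5 CPM in siCT. Every siPDCD4 library lay below every siCT library, and within siPDCD4 the first library was the lowest. The mean was 28.4 ± 2.64 CPM in siPDCD4 and 54.4 ± 3.998 CPM in siCT (SD, n = 3 each), a log2 fold change of -0.94 ± 0.11 (95% confidence interval -1.18 to -0.69). The estimated counts behind these levels were 456, 410 and 480 in siPDCD4 and 1094, 910 and 748 in siCT. Without siPDCD4 1 the log2 fold change of DNER was -0.86, and without siCT 3 it was -0.88. At an FDR of 5%, 0.429% of the 13047 genes tested were called, 0.169% higher and 0.261% lower in siPDCD4, and DNER was the only 1 of 9 tested members called. Among the 34 genes called lower it ranked 14 by size of the log2 fold change. Because the members were chosen on this contrast, nothing is read from that count. Beside this, each of the 8 neuronal markers reached at most 0.881 TPM in any library.

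Both listed transcripts of DNER were lower in siPDCD4. DNER-201, the coding transcript of 3257 bases, held 91.4 ± 0.83% of the gene's counts in siPDCD4 and 92.2 ± 1.04% in siCT. DNER-201 was at 6.99, 7.66 and 7.96 TPM in siPDCD4 and 13.7, 14.6 and 15.9 TPM in siCT. DNER-202, a transcript of 842 bases with no defined coding sequence, was at 2.83, 3.82 and 3.49 TPM in siPDCD4 and 6.42, 5.38 and 5.68 TPM in siCT. The short DNER-202 therefore adds more to the gene's TPM than its counts would, and the gene levels in TPM below include it.

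**Figure D1:**
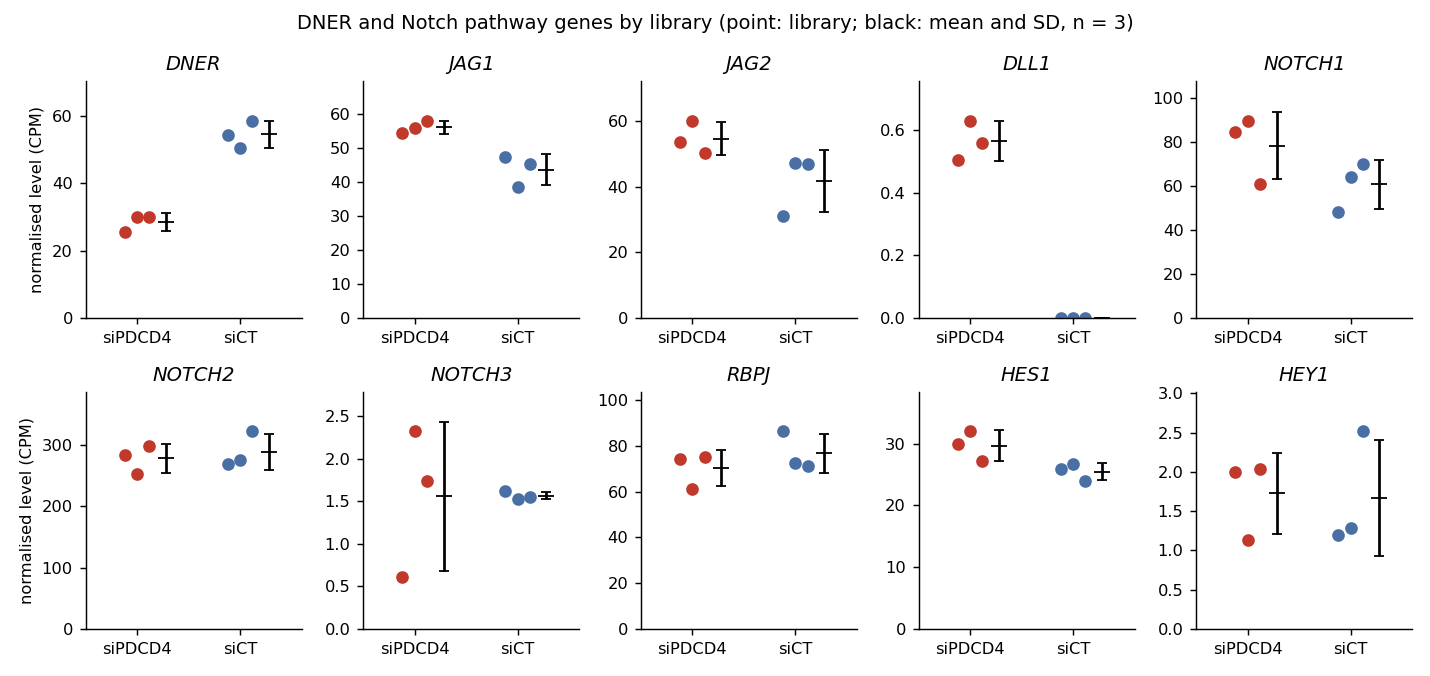
Normalised level in CPM of each of the 10 members in the 3 siPDCD4 libraries (red, left) and the 3 siCT libraries (blue, right), each panel from 0 on its own axis, with the mean and SD in black. The groups stand apart for DNER, at 25.4 to 30.1 CPM in siPDCD4 and 50.5 to 58.5 CPM in siCT. They also stand apart, with siPDCD4 higher, for JAG1, JAG2 and HES1, and for DLL1 near the limit of detection. They overlap for NOTCH1, NOTCH2, NOTCH3, RBPJ and HEY1.

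Among the classical ligand genes, JAG1 and JAG2 lay a little higher in siPDCD4. JAG1 (chromosome 20, 10637684 to 10673999) had 54.4, 55.9 and 58.2 CPM in siPDCD4 and 47.3, 38.6 and 45.2 CPM in siCT. All siPDCD4 libraries of JAG1 lay above all siCT libraries, with a log2 fold change of 0.36 ± 0.10 (95% confidence interval 0.13 to 0.59), and 0.38 without siCT 3. JAG2 (chromosome 14, 105140982 to 105168824) had 53.6, 60.1 and 50.3 CPM in siPDCD4 and 31.0, 47.2 and 47.0 CPM in siCT. Its groups also did not overlap, but siCT 1 was far below the other siCT libraries, and the log2 fold change was 0.39 ± 0.16, or 0.21 without siCT 1. Retained-intron transcripts held 32.4 ± 4.90% of the JAG2 counts in siPDCD4 and 35.0 ± 6.23% in siCT. Neither JAG1 nor JAG2 was called at an FDR of 5%.

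DLL1 (chromosome 6, 170282206 to 170306565), a Delta-like ligand gene, was near the limit of detection. Its 1 listed transcript, DLL1-201, had 9, 9 and 9 estimated counts in siPDCD4 and 0, 0 and 0 in siCT, and the gene stayed below the expression filter. With siCT set to a chosen floor of 3 counts over the whole group, its share of the counts was 9.49-fold higher in siPDCD4, from 27 counts in all. This ratio depends on the floor, so no size of the difference is read from it. MAML1, a coactivator, was likewise listed at 0, in all libraries, while a transcript of the same length, not matched to a gene here, held 1142, 989 and 986 counts in siPDCD4 and 1239, 1063 and 737 in siCT. A shared length alone does not tie such a transcript to a gene. For DLL1 an unmatched transcript of the same length held 2 counts, in siPDCD4 1, and its part in the DLL1 values was not tested.

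The 3 receptor genes overlapped between the groups. NOTCH1 (chromosome 9, 136494433 to 136546048) had 84.4, 89.7 and 60.9 CPM in siPDCD4 and 48.4, 63.9 and 69.9 CPM in siCT, with a log2 fold change of 0.37 ± 0.17 and a 95% confidence interval of -0.01 to 0.75. Without siCT 1, its lowest library, the log2 fold change of NOTCH1 was 0.23, and over all settings it lay between 0.23 and 0.53. Its reads were divided unevenly among transcripts, and transcripts marked for nonsense-mediated decay held 28.6 ± 24.8% of its counts in siPDCD4 and 34.8 ± 12.2% in siCT. NOTCH2 (chromosome 1, 119911553 to 120100779) had 283.7, 253 and 299 CPM in siPDCD4 and 269, 276 and 323 CPM in siCT, a log2 fold change of -0.05 ± 0.10 with a 95% confidence interval of -0.27 to 0.16. NOTCH3 (chromosome 19, 15159038 to 15200995) was low, with 0.61, 2.32 and 1.73 CPM in siPDCD4 and 1.62, 1.53 and 1.55 CPM in siCT, and the 95% confidence interval of its log2 fold change ran from -1.14 to 0.90. The estimated counts of NOTCH3 were 26, 23 and 29.6 in siPDCD4 and 36.3, 19 and 14 in siCT, and its log2 fold change of -0.12 ± 0.46 became 0.29 with no length offset and 0.35 without siPDCD4 1, so no direction is given for it. The reads of the human NOTCH2NL copies can be shared with NOTCH2, and NOTCH2NLA had 51.6 CPM in siPDCD4 and 55.3 CPM in siCT on average, with a log2 fold change of -0.10 ± 0.10 (edgeR adjusted p = 0.912). The log2 fold changes of the other copies were -0.13 ± 0.18 for NOTCH2NLB, -0.12 ± 0.30 for NOTCH2NLC and -0.00108 for NOTCH2NLR.

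Downstream of the receptors, RBPJ (chromosome 4, 26163455 to 26435131) had 74.4, 61.2 and 75.4 CPM in siPDCD4 and 86.5, 72.4 and 71.5 CPM in siCT. These groups overlapped, with a log2 fold change of -0.13 ± 0.11, or -0.03 without siCT 1 and -0.04 without siPDCD4 2. HES1 (chromosome 3, 194136148 to 194138732), a transcriptional repressor and target of the pathway, had 29.996, 32.0 and 27.1 CPM in siPDCD4 and 25.8, 26.7 and 24.0 CPM in siCT. All 3 siPDCD4 libraries of HES1 lay above the highest siCT library, siPDCD4 3 only just. The log2 fold change of HES1 was 0.22 ± 0.11 (95% confidence interval -0.03 to 0.47), not called, and 0.18 without siCT 3. HEY1 (chromosome 8, 79762371 to 79767857), a related repressor, had 2.00, 1.14 and 2.04 CPM in siPDCD4 and 1.195, 1.28 and 2.52 CPM in siCT, so its groups overlapped at a level resting on 16 to 37 counts a library. The log2 fold change of HEY1 was 0.10 ± 0.39. Of the 9 tested members, 3 had every siPDCD4 library above every siCT library (JAG1, JAG2 and HES1) and 1 had them all below (DNER), where 6.81% of all genes tested did the first and 7.14% the second. Because the members were chosen on this contrast, nothing is read from those shares.

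DNER made up a smaller part of the summed gene TPM of the ligand genes in siPDCD4, with all listed transcripts of each gene included. Of the summed TPM of DNER, JAG1, JAG2 and DLL1, DNER made up 21.6%, 22.9% and 25.0% in siPDCD4 and 46.8%, 40.0% and 42.5% in siCT. The sum itself was 47.1 ± 2.62 TPM in siPDCD4 and 47.9 ± 4.28 TPM in siCT (SD, n = 3 each). The ratio of DNER to JAG1 was 0.925 ± 0.064 in siPDCD4 and 2.29 ± 0.163 in siCT.

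**Figure D2:**
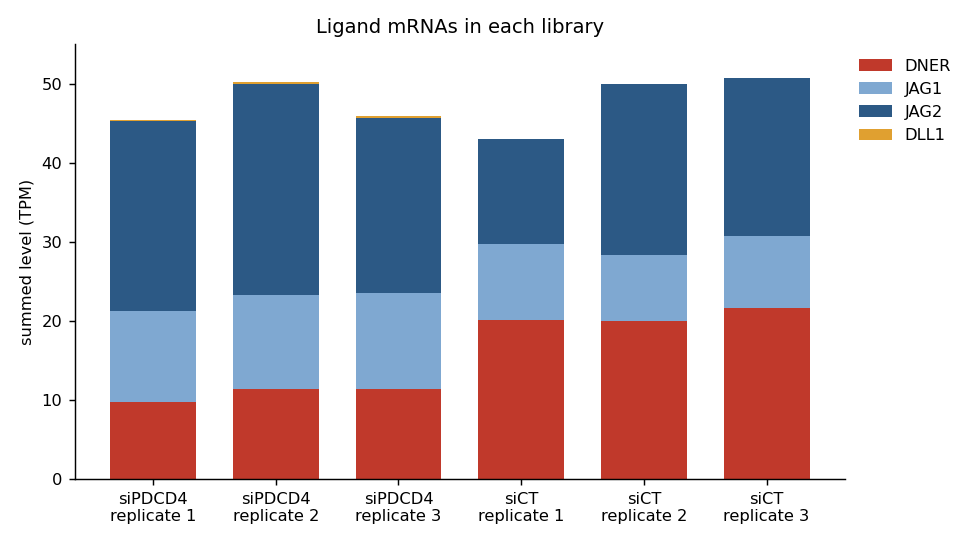
Stacked TPM of the 4 ligand genes in each library, the 3 siPDCD4 libraries on the left and the 3 siCT libraries on the right. All listed transcripts are included, among them DNER-202 and the retained-intron transcripts of JAG2, so the bars do not show coding ligand mRNA alone. DNER makes up 21.6% to 25.0% of each siPDCD4 bar and 40.0% to 46.8% of each siCT bar, and the summed levels of the bars overlap between the groups.

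In siPDCD4, the order of the members by mean TPM was NOTCH2, JAG2, HES1, RBPJ, JAG1, DNER, NOTCH1, HEY1, NOTCH3 and DLL1, at 26.7 ± 2.16 TPM for NOTCH2 and 0.14 TPM for DLL1. DNER was at 10.9 ± 0.95 TPM there and JAG1 at 11.8 ± 0.30 TPM, and these neighbours did not overlap, although the gap was small. NOTCH1 at 9.55 ± 1.93 TPM did overlap DNER. In siCT the order was NOTCH2, RBPJ, DNER, JAG2, HES1, JAG1, NOTCH1, HEY1, NOTCH3 and DLL1, with NOTCH2 at 27.3 ± 2.43 TPM. In siCT, DNER was at 20.6 ± 0.89 TPM, overlapping RBPJ at 20.8 ± 2.05 TPM and JAG2 at 18.3 ± 4.44 TPM. The place of JAG2 in both orders rests in large part on its short retained-intron transcripts. NOTCH2 was the main receptor mRNA in both groups, with 72.6 ± 5.40% of the summed receptor TPM in siPDCD4 and 77.8 ± 1.97% in siCT.

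**Figure D3:**
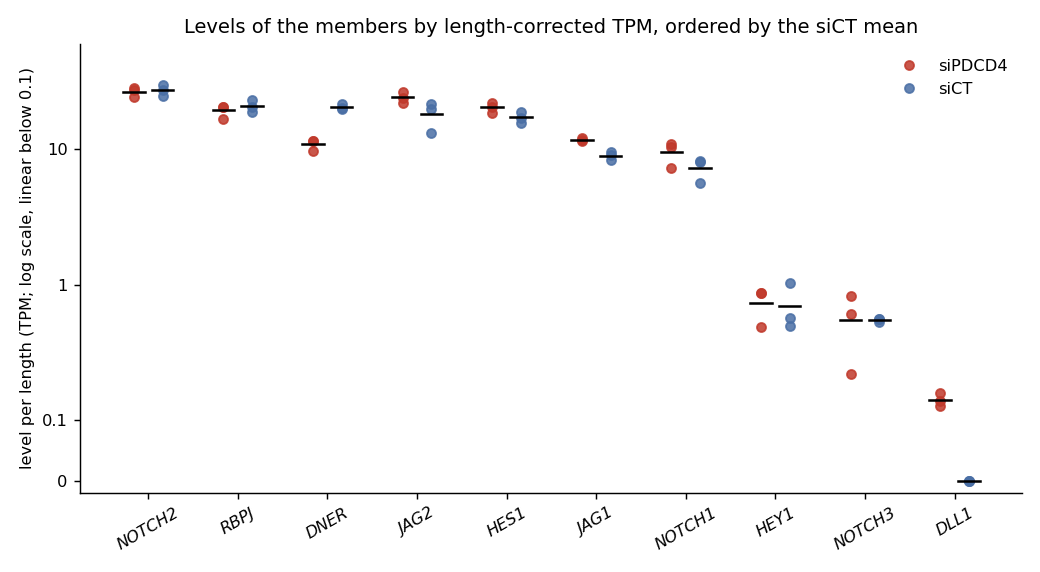
Level in TPM of each member in siPDCD4 (red, left of each pair) and siCT (blue, right), ordered by the siCT mean, on a log scale that is linear below 0.1 TPM, with black lines at the means. DNER lies at 10.9 TPM on average in siPDCD4 and 20.6 TPM in siCT, while NOTCH2 overlaps between the groups.

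The 5 tested genes whose log2 CPM was most like that of DNER, by Pearson's r over the 6 libraries, were SGPP2 (r = 0.994), SULT1E1 (r = 0.993), DUSP1 (r = 0.992), ERGIC1 (r = 0.991) and EFCAB14 (r = 0.989). In all 5 genes every siPDCD4 library lay below every siCT library, as for DNER, and the correlations are a description over points that share this grouping. The 5 were picked by likeness to DNER over these same libraries, so nothing is read from that count. Among all genes tested, 7.14% lay lower in this way. ERGIC1 was not called at an FDR of 5% (edgeR adjusted p = 0.130), unlike the others. SULT1E1, a sulfotransferase that inactivates oestrogens, had 20.5 ± 1.38 CPM in siPDCD4 and 49.4 ± 2.31 CPM in siCT. DUSP1, a phosphatase that switches off MAP kinases, had 152.7 ± 12.3 CPM in siPDCD4 and 240.7 ± 19.4 CPM in siCT. SGPP2, a phosphatase for sphingosine 1-phosphate, had 21.6 ± 0.84 CPM in siPDCD4 and 37.5 ± 2.36 CPM in siCT. The other two lay at 318.5 ± 3.13 CPM in siPDCD4 and 399.9 ± 14.7 CPM in siCT for ERGIC1, and at 89.8 ± 3.76 CPM in siPDCD4 and 148.2 ± 2.93 CPM in siCT for EFCAB14.

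Beyond the 10 members, 81 further genes of the pathway were listed by role, and none of the 68 tested was called by edgeR or by DESeq2 at an FDR of 5%. Their median log2 fold change was 0.01, against -0.01 over all 13047 genes, with 38 above 0 and 30 below. By edgeR 4 of the 68 had an unadjusted p under 0.05, where 1125 of 13047 did among all genes. These 4 were NCSTN, KAT2B, NUMBL and NRARP.

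NCSTN, a subunit of the gamma-secretase that releases the receptor's intracellular part, had 97.6, 95.8 and 99.0 CPM in siPDCD4 and 119, 112 and 110 CPM in siCT, with a log2 fold change of -0.22 ± 0.08 (edgeR adjusted p = 0.405). NUMBL, related to the Notch antagonist NUMB, had 12.5, 14.5 and 13.2 CPM in siPDCD4 and 7.24, 10.2 and 9.96 CPM in siCT, with a log2 fold change of 0.56 ± 0.17 (edgeR adjusted p = 0.305). KAT2B, an acetyltransferase coactivator, had 6.66, 5.22 and 6.87 CPM in siPDCD4 and 7.54, 8.98 and 8.63 CPM in siCT, with a log2 fold change of -0.42 ± 0.18 (edgeR adjusted p = 0.548). In these 3 genes the groups did not overlap, but none passed the threshold. Of the 68 tested genes 10 had groups that did not overlap, 4 with siPDCD4 higher and 6 with siPDCD4 lower, where 13.9% of all genes tested did. The higher ones were NUMBL, NRARP, DTX2 and DTX3L, and the lower ones were NCSTN, KAT2B, ADAM10, HDAC1, FHL1 and DTX3.

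The 8 other HES, HEY and NRARP genes, listed as targets, included 5 tested ones, none past the threshold. All 5 lay above 0 on the log2 scale with a median of 0.24, where 6350 of all 13047 genes tested lay above 0. HES4 at 0.19 ± 0.39, HES6 at 0.24 ± 0.33 and HES7 at 0.48 ± 0.49 had few counts and an SE larger than the fold change. No common direction is read from these genes. NRARP, a target that also limits Notch signalling, had 1.29, 1.68 and 1.68 CPM in siPDCD4 and 0.872, 0.799 and 0.485 CPM in siCT. The groups of NRARP did not overlap, and its log2 fold change of 1.06 ± 0.36 (edgeR adjusted p = 0.362) rests on 6 to 27 counts a library. HES2 lay at 0.19 ± 0.15 (edgeR adjusted p = 0.870). HES5 was listed at 0 in all libraries. Transcripts of the same length that were not matched to a gene here held 256, 181 and 209 counts in siPDCD4 and 240.5, 244 and 86.2 in siCT. Only the length is shared, so these counts cannot be assigned to HES5. HEY2 and HEYL had at most 1 count in any library.

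The remaining roles held no gene past the threshold either. Of the 9 glycosylation enzymes 4 lay above 0, and LFNG, which modifies the receptor's EGF repeats, had a log2 fold change of 0.41 ± 0.18 (edgeR adjusted p = 0.579), while EOGT lay at -0.14 ± 0.09 (edgeR adjusted p = 0.801). Of the 9 protease genes 6 lay below 0, among them ADAM10, which cuts the bound receptor, at -0.11 ± 0.08 (edgeR adjusted p = 0.845). EP300, a coactivator acetyltransferase, had 22.8, 21.8 and 29.4 CPM in siPDCD4 and 26.8, 27.4 and 62.9 CPM in siCT, so siCT 3 alone was high. The log2 fold change of EP300 was -0.63 ± 0.35 (edgeR adjusted p = 0.755) and -0.14 without siCT 3, and -0.02 with no length offset. Among 13 tested corepressor genes 7 lay above 0, with FHL1 at -0.28 ± 0.14 (edgeR adjusted p = 0.653) and HDAC1 at -0.17 ± 0.08 (edgeR adjusted p = 0.644). Of 11 tested antagonists and turnover factors 9 lay above 0, DTX3L among them at 0.22 ± 0.10 (edgeR adjusted p = 0.594). DTX3 had the most negative log2 fold change of the 68 tested genes, at -0.86 ± 0.42 (edgeR adjusted p = 0.631). It had 0.547, 0.437 and 0.416 CPM in siPDCD4 and 0.591, 1.09 and 0.974 CPM in siCT. The estimated counts behind them were 16, 4 and 9 in siPDCD4 and 12, 15 and 11 in siCT. These counts overlapped, so its groups stood apart only after scaling and the length correction.

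Of the other ligand genes, DLK2, a non-canonical Delta-like gene, had the highest level, at 14.1 ± 3.23 TPM in siPDCD4 and 13.3 ± 4.48 TPM in siCT. Its groups overlapped, with a log2 fold change of 0.07 ± 0.22 (edgeR adjusted p = 0.984). The rest were at under 2 TPM on average in each group. DLL3 lay at 0.03 ± 0.37 (edgeR adjusted p = 0.993), and DLL4 had at most 2 counts in any library. EGFL7, a secreted protein described as a Notch antagonist, lay at 0.59 ± 0.40 (edgeR adjusted p = 0.812) and MFAP5, a microfibril protein, at -0.19 ± 0.47 (edgeR adjusted p = 0.976). The endocytosis genes EPN2 and MIB2 lay at -0.18 ± 0.14 (edgeR adjusted p = 0.848) and 0.21 ± 0.32 (edgeR adjusted p = 0.965). NOTCH4, DLK1, CNTN6, NEURL1 and DTX1 were listed at 0 in all libraries.

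**Figure D4:**
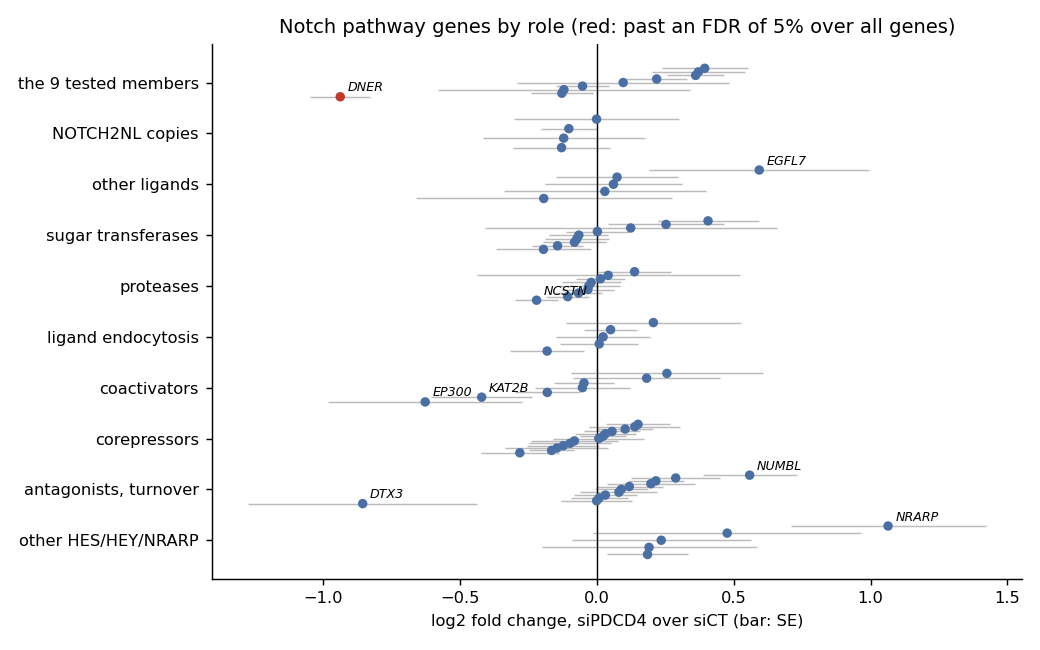
Log2 fold change of siPDCD4 over siCT (x axis, bars give the SE) for each tested member and wider Notch gene, grouped by role down the page. DNER at -0.94 is the only point past an FDR of 5% (red), and the labelled genes of the wider list, such as NRARP at 1.06, are not past it.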

How the data were processed

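Total RNA libraries of MCF10A cells (3 siPDCD4 and 3 siCT, paired reads of 75 bases) were quantified by the authors with Salmon on a GRCh38 transcript set (release 109). Salmon's own version was not given in the sources used here. The deposited tables list, per transcript, the estimated counts and the TPM that the authors made with Salmon, for 194142 transcripts. Salmon shares a read among the transcripts it fits, so counts of near copies are uncertain. Of the transcripts, 181244 were matched by identifier to GENCODE release 44 and summed to 34486 genes, and the other 12898 held 5.47% to 6.21% of the counts and were not used.

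Whole-number gene counts, after rounding, went into the quasi-likelihood test of edgeR 4.0.16 (R 4.3.3; TMM factors, filterByExpr, an offset for transcript length, group as the only factor), with Benjamini-Hochberg adjustment over 13047 genes. CPM were computed here from these offsets, and TPM were summed per gene. Levels and shares are given ± SD, and log2 fold changes ± SE. DESeq2 1.42.0, other scalings, no filter, no length offset, a replicate block and leaving out each library were the alternatives. The scripts were tested on simulated data. Named genes were the 10 members, PDCD4, the NOTCH2NL copies, the wider genes past the threshold or with the 2 smallest p-values per role, and the 5 genes most like DNER. DLK2, DTX2, DTX3, KRT5, KRT8, KRT14, KRT17, KRT18, TP63, EPCAM, HES4, HES5, HES6, HES7, HEY2, HEYL, DLL4, MAML1 and the genes at 0 were named after their values were seen. The members and lists were chosen with earlier results of these data known. Protein sequences and the promoters of DNER, DLL1 and HEY1 were not analysed here.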

Additional observations from a re-analysis of the deposited data

How the results depend on the processing

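DNER was called lower under all 12 settings, with log2 fold changes of -0.99 to -0.86, and no other tested member was called under any of them, while DLL1, tested only with no filter, was called there. The count of genes past the threshold was 56 (22 higher and 34 lower in siPDCD4), and it was 108 (43 and 65) with no filter, 193 (85 and 108) with DESeq2, 126 (54 and 72) with no length offset and 102 (37 and 65) with the replicate block. Leaving out 1 library at a time it was 17 to 40, with 6 to 11 higher and 11 to 29 lower. The causes were not tested. Same-numbered libraries correlated in their deviations at 0.0886, 0.133 and 0.198. Of the differently numbered ones, siPDCD4 1 and siCT 2 correlated at 0.113, and the rest lay between -0.214 and -0.0367. Each library except siPDCD4 1 therefore correlated best with the library of its own number. The labels do not state pairs and these values cannot settle it, so the main test used group alone and the block was an alternative. No member's call changed with the block. Among the members, NOTCH2 (-0.10 to 0.03), NOTCH3 (-0.49 to 0.35) and HEY1 (-0.10 to 0.49) changed sign over the settings, HEY1 at -0.10 without siCT 1 and 0.49 without siCT 3. In the wider list, which held no call, some directions turned. DLL3 was at -0.00446 with the replicate block, -0.20 without siPDCD4 1, -0.06 without siPDCD4 3 and -0.13 without siCT 3, and lay between -0.20 and 0.30 over the fits without 1 library. MFAP5 was at 0.41 without siCT 2 and between -0.60 and 0.41 over such fits, EPN2 at 0.20 with no length offset, and MIB2 at -0.0418 with no length offset, -0.24 without siPDCD4 2 and between -0.24 and 0.44 over such fits. NOTCH3, HEY1, NRARP and DLL1 rest on few counts, which limits what their values can show.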
